A study of Mus musculus with 6 samples.

Results

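Galectins are small proteins that bind beta-galactoside sugars on glycoproteins. They are secreted without a signal peptide and cross-link surface glycoproteins, and several also act inside the cell. In tumours they are known for dampening T cells, remodelling matrix adhesion and marking damaged vesicles in the cytosol. The set described here is the 8 gene rows named Lgals1, Lgals2, Lgals3, Lgals3bp, Lgals4, Lgals7, Lgals8 and Lgals9, chosen by name from 55298 rows. Lgals3bp encodes a secreted scavenger-receptor glycoprotein that binds galectin-3 and is not itself a galectin. All 8 were above 0 in every library and entered the test.

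RNA was sequenced from cancer-associated fibroblasts of orthotopic lung tumours grown in wt C57BL/6 mice over 8 weeks of age. The apCAFs (3 libraries, numbered 1, 2 and 3) carried surface MHCII, the complex that presents antigen to CD4 T cells, and the nonapCAFs (3 libraries, numbered 4, 5 and 6) did not. All other sort criteria were shared: large cells with PDPL and PDGFRa (as spelled in the labels) and without CD45, CD31, EPCAM or mCherry, which marks the tumour cells. Tumours were pooled before each sort, so a library stands for no single mouse, and the labels do not say which libraries came from the same of the 3 experiments.

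The genes of the gate followed the labels: the 4 class II genes H2-Aa, H2-Ab1, H2-Eb1 and Cd74 together read 104629 to 193196 in apCAFs and 1397 to 2178 in nonapCAFs. The fibroblast genes Col1a1, Col1a2, Dcn, Lum, Thy1, Pdgfra and Pdpn each read at least 1451 in all 6 libraries. Values are the authors' normalized counts per gene, rounded to whole numbers. They sum to 77960347 to 93330791 per library and are not sequencing depths, which are unknown. Within each group a pair of libraries was close. The SD of the log2 ratio, taken over the 17829 genes averaging 100 or more, was 0.238 for apCAFs 1 and 2 and 0.246 for nonapCAFs 4 and 5, while other pairs of the same group had 0.479 to 0.708. P-values measure the spread between these libraries, close pairs included.

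Of the 8 genes, 3 were higher in apCAFs: Lgals7, Lgals3bp and Lgals9. None was lower. The background was 1602 of 36443 genes called, or 4.4%, with 1425 higher, or 3.91%, and 177 lower, or 0.486% (limma, Benjamini-Hochberg adjusted p under 0.05 over all genes tested). Among genes averaging 100 or more the share called higher was 5.87%. With quantile-normalized values these whole-table counts were 1049 higher and 281 lower, and the same 3 of the 8 passed. Values divided by library totals gave 1166 higher and 185 lower, and median-centred values 1049 higher and 242 lower, with Lgals7 and Lgals3bp passing in each. With p unadjusted at 0.05, 4 of the 8 lay higher and 0 lower (1 lower with median-centred values), beside 13.1% of all genes higher, and the authors' deposited table lists 0 as lower. Once each close pair was averaged into 1 library, none of the 3 calls held (limma adjusted p = 0.194 for Lgals7, 0.228 for Lgals3bp and 0.289 for Lgals9). Nor did any hold with an experiment term, whichever of the 6 possible pairings of libraries was used, and limma then called 0 genes in the whole table (3949 to 4786 higher with p unadjusted at 0.05). The median log2 fold change of the 8 genes was 0.65, beside -0.04 for all genes tested. In bulk RNA, more cells expressing a gene and more RNA of it per cell cannot be told apart.

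**Figure D1:**
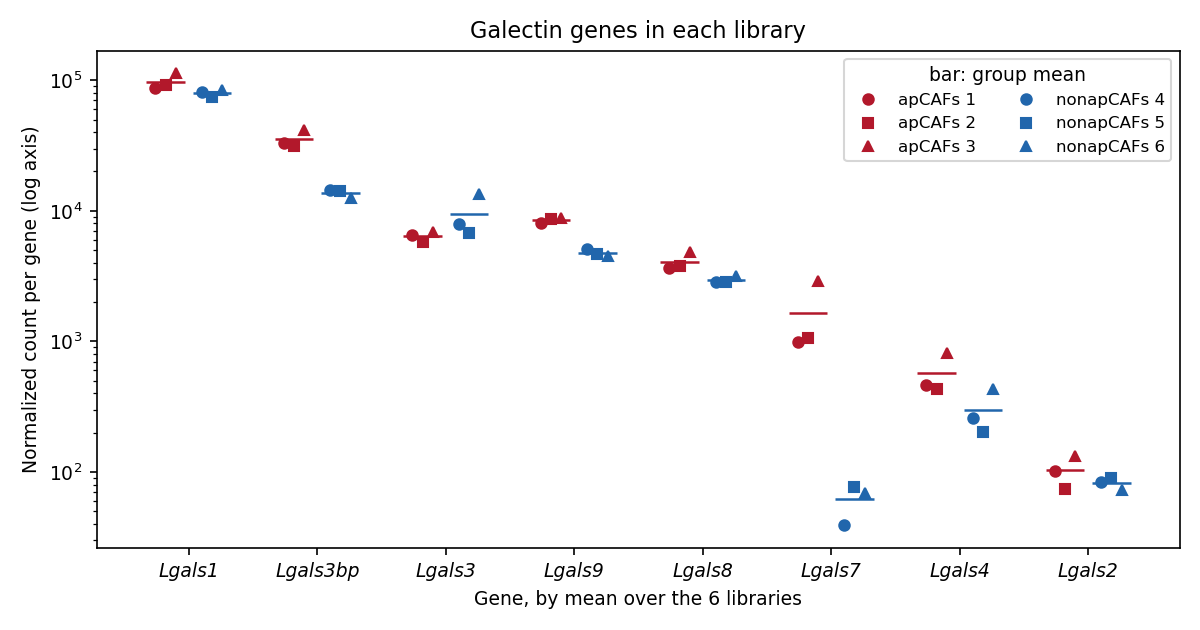
Normalized count per gene (log axis) in each of the 6 libraries, with apCAFs in red left of nonapCAFs in blue; symbols are libraries and bars are group means. Lgals7 separates the groups most, with 993 to 2910 in apCAFs and 39 to 77 in nonapCAFs, while Lgals3 and Lgals2 overlap.

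Lgals7 showed the widest difference of the 8. It encodes galectin-7, a single-domain (prototype) galectin best known from stratified epithelia such as skin, where it is linked to p53 responses and to cell adhesion. The gene lies on chromosome 7, 28863853 to 28866284, forward strand, in mm10. It read 993, 1052 and 2910 in apCAFs 1, 2 and 3, against 39, 77 and 69 in nonapCAFs 4, 5 and 6. Every apCAFs library was above every nonapCAFs library, and apCAFs 3 stood well above the other apCAFs. The means were 1652 ± 1090 in apCAFs and 61.7 ± 20.0 in nonapCAFs (SD, n = 3 each). On the log2(value + 1) scale the difference was 4.59 (SE 0.52, 95% interval 3.27 to 5.90, limma adjusted p = 0.0183), which is 24.1-fold. The call was lost without 1 library other than apCAFs 3: without apCAFs 1, apCAFs 2, nonapCAFs 4, nonapCAFs 5 or nonapCAFs 6 the limma adjusted p lay between 0.0538 and 0.0677, and without apCAFs 3 it was 0.0162, with log2 differences of 4.09 to 4.86 throughout.

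No other gene within 40000 bases of Lgals7 passed. Neighbours were picked for their position after the values were seen. Lgals4 lies 22145 bases upstream and Capn12 15138 bases downstream, both on the same strand. Capn12, a calpain protease gene, averaged 2529 ± 153 in apCAFs and 2163 ± 94.5 in nonapCAFs (log2 0.22, limma adjusted p = 0.388). Actn4, an actin cross-linker gene, averaged 36792 ± 4561 in apCAFs and 36316 ± 2457 in nonapCAFs (log2 0.01, limma adjusted p = 0.969). Gm10648, annotated across the whole of Lgals7 on the opposite strand, held 2 to 4 in apCAFs and 0 to 5 in nonapCAFs; the strand setting of the counting is not given in the sources used here.

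Other cell types that express Lgals7 were looked for by their markers. Among 6 genes of stratified epithelium, 1 passed in limma (Sfn; 4 higher with p unadjusted at 0.05 and 3 in the authors' deposited table), and the list summed to 1586 to 1991 in apCAFs and 162 to 302 in nonapCAFs. Krt14, a basal keratin gene, held most of the apCAFs sum but did not pass, with 1303, 1321 and 1062 in apCAFs 1, 2 and 3, against 174, 75 and 5 in nonapCAFs 4, 5 and 6 (limma adjusted p = 0.122). Trp63, a basal transcription factor gene, had 59, 61 and 130 in apCAFs 1, 2 and 3, against 7, 9 and 38 in nonapCAFs 4, 5 and 6. Other defining genes of that list were at or near 0 in all 6 libraries, with at most 15 for Krt5, 4 for Krt6a and 5 for Dsg3. Of 7 mesothelial genes, 6 passed higher in limma, the exception being Bnc1, beside 3.91% of all genes tested. The list summed to 36818 to 47728 in apCAFs and 5073 to 5863 in nonapCAFs. Wt1, a mesothelial transcription factor gene, had 5484, 5441 and 14937 in apCAFs 1, 2 and 3, against 359, 358 and 561 in nonapCAFs 4, 5 and 6. Within apCAFs, Wt1, Lrrn4 and Gpm6a were highest in apCAFs 3, as Lgals7 was, while Msln, Upk3b and Upk1b were highest in apCAFs 1. The part of these cell types in the Lgals7 difference was not tested.

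Lgals3bp was the most abundant of the called genes. Its product, also called 90K or Mac-2 binding protein, is secreted, binds galectin-3, integrins and collagens, and is known as interferon-inducible. The gene lies on chromosome 11, 118392751 to 118402092, reverse strand. It read 33162, 31308 and 41247 in apCAFs 1, 2 and 3, against 14509, 14088 and 12443 in nonapCAFs 4, 5 and 6. The groups did not overlap, and the lowest apCAFs library was above the highest nonapCAFs library by more than the spread within either group. The means were 35239 ± 5285 in apCAFs and 13680 ± 1092 in nonapCAFs (SD, n = 3 each), a log2 difference of 1.36 (SE 0.17, 95% interval 0.93 to 1.79, limma adjusted p = 0.0216), or 2.56-fold. Without apCAFs 1, apCAFs 2, nonapCAFs 4, nonapCAFs 5 or nonapCAFs 6 the limma adjusted p was 0.0591 to 0.081, and without apCAFs 3 it was 0.0213. Among genes within 40000 bases, C1qtnf1, 26111 bases away on the opposite strand, also passed higher, with 8727, 7866 and 11331 in apCAFs 1, 2 and 3, against 4109, 3737 and 2631 in nonapCAFs 4, 5 and 6 (log2 1.42, limma adjusted p = 0.0447). No gene within that distance of Lgals9 passed.

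Lgals9 differed less, with little spread between libraries. It encodes galectin-9, a galectin with 2 sugar-binding domains in tandem. Galectin-9 binds TIM-3, a receptor protein of leukocytes, and is known to be induced by interferon. The gene lies on chromosome 11, 78962974 to 78984946, reverse strand. Lgals9 read 8075, 8635 and 8832 in apCAFs 1, 2 and 3, against 5089, 4693 and 4476 in nonapCAFs 4, 5 and 6. The highest library was 1.09 times the lowest within apCAFs and 1.14 times within nonapCAFs, and the groups did not overlap. The means were 8514 ± 393 in apCAFs and 4753 ± 311 in nonapCAFs (SD, n = 3 each), a log2 difference of 0.84 (SE 0.13, 95% interval 0.51 to 1.18, limma adjusted p = 0.0356), or 1.79-fold. The call was lost with values divided by library totals (log2 0.69, limma adjusted p = 0.0611) and with median-centred values (log2 0.62, limma adjusted p = 0.0829), and without apCAFs 1, apCAFs 2, nonapCAFs 4, nonapCAFs 5 or nonapCAFs 6 (limma adjusted p = 0.0843 to 0.127).

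**Figure D2:**
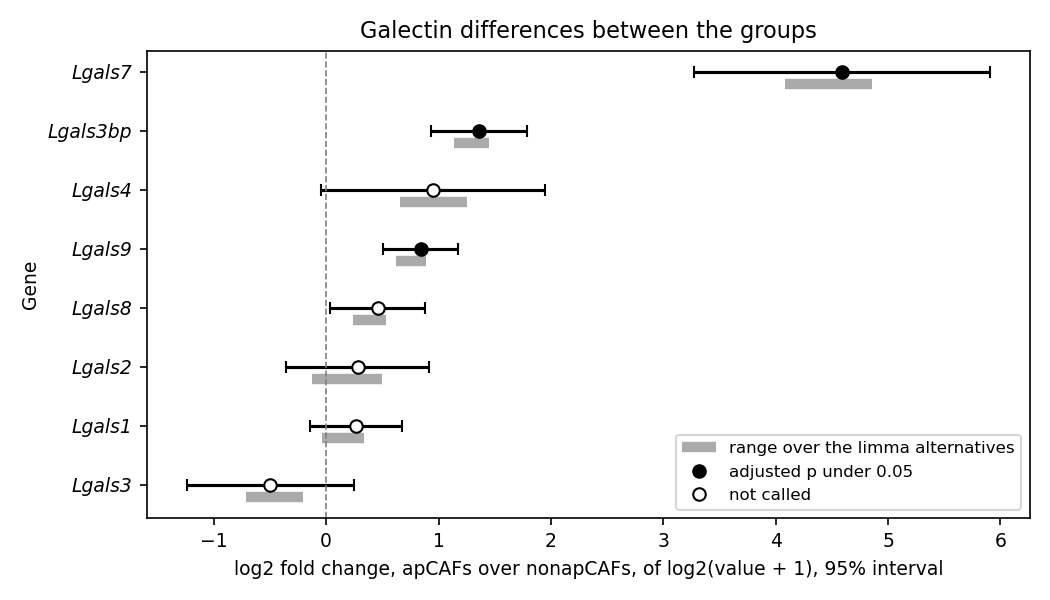
Log2 fold change of each gene, apCAFs over nonapCAFs, with its 95% interval; filled points passed the adjusted threshold and grey bars give the range over the limma alternatives. Lgals7 (4.59), Lgals3bp (1.36) and Lgals9 (0.84) are filled, and Lgals3 is the one gene below 0 (-0.50).

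Since Lgals9 and Lgals3bp are known as interferon-inducible, the windows from 250 bases before to 50 after the transcription start were searched for the letters that interferon-activated factors bind. RefSeq gave a window (GRCm38.p6) for 7 of the 8 genes. The motifs were GAAA followed by any 2 bases and GAAA again (the core of the interferon-stimulated response element, ISRE) and AANNGAAA (the core bound by IRF proteins, which every ISRE core contains), each on both strands. The ISRE core occurs in 3.44% of all 32851 windows and the IRF core in 23.9%. The stretches that hold the matches in Lgals9 and Lgals3bp are shown 5′ to 3′ on the strand of the gene, with ISRE and IRF core letters in capitals, and a stretch before Lgals7 is shown beside them. Positions count from the start base as 0. This start is the RefSeq one, and for Lgals3, Lgals7, Lgals8, Lgals3bp and Lgals9 it lies inside the annotated gene span. Of the 250 bases before it, 157 for Lgals7, 133 for Lgals3bp, 47 for Lgals3, 22 for Lgals9 and 0 for Lgals8 lie in exons. The Lgals7 stretch shown thus lies within the span of Lgals7.
Lgals9 before the start, chr11:78984947-78985174, reverse strand: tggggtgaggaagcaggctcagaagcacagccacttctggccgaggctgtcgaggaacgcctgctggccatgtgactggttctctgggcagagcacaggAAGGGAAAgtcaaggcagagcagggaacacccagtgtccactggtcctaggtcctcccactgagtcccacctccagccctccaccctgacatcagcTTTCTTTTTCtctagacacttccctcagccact
Lgals9 after the start, chr11:78984890-78984919, reverse strand: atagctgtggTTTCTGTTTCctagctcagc
Lgals3bp at the start, chr11:118401955-118401984, reverse strand: tgttttctgaaAATCGAAActaggtgaggt
Lgals7 before the start, chr7:28864136-28864228, forward strand: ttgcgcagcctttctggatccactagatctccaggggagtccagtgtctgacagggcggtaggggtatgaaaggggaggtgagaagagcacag
Lgals9 held 2 ISRE cores, at -55 to -46 and at 15 to 24, both on the opposite strand, and a separate IRF core at -151 to -144. Lgals3bp held an IRF core at -14 to -7, among the bases that lie in exons, and no ISRE core. The windows of Lgals2, Lgals3, Lgals4, Lgals7 and Lgals8 held neither. Those of Lgals3, Lgals7 and Lgals8 lie wholly inside the gene spans, so the bases before the annotated ends of these genes were not searched. These are matches of letters, not shown to be bound sites.

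Many interferon-inducible genes were higher in apCAFs. Of 12 such genes, 7 passed higher and 0 lower in limma, beside 3.91% and 0.486% of all genes tested. With p unadjusted at 0.05, 11 were higher and 0 lower, beside 13.1% of all genes higher. The authors' deposited table gave the same counts, beside 20.6% higher of its genes with an adjusted p. The median log2 fold change was 1.48, beside -0.04 for all genes tested. Irf7, a transcription factor of the interferon response, was 5.02-fold higher (limma adjusted p = 0.0141), and Ifit3, an antiviral effector gene, 4.11-fold higher (limma adjusted p = 0.0141). Oasl2, of the oligoadenylate synthase-like family, was 2.87-fold higher (limma adjusted p = 0.0178) and Mx1, an antiviral GTPase gene, 4.45-fold higher (limma adjusted p = 0.0212). The part of interferon in the Lgals9 and Lgals3bp differences was not tested.

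Genes whose pattern over the 6 libraries came closest to each called galectin were ranked among 12877 named genes averaging 100 or more. The measure was the root mean square difference of centred log2(value + 1) values. Nearest to Lgals3bp were Tap1, a class I peptide transporter gene (difference 0.0419), Irf8, a transcription factor gene (0.047), and Tnfrsf26 (0.0591). Nearest to Lgals9 were Gng11, a G protein subunit gene (0.0403), B2m, the light chain gene of MHC class I (0.0564), and Mid1ip1 (0.0577). Nearest to Lgals7, with larger differences, were Aqp5, a water channel gene of alveolar type I cells (0.175), Trem2, a receptor gene of macrophages (0.244), and Apol11b (0.251). Aqp5 had 1167, 1072 and 3063 in apCAFs 1, 2 and 3, against 55, 74 and 75 in nonapCAFs 4, 5 and 6. These rankings describe 6 libraries that fall into 2 groups.

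The other 5 genes did not pass. Lgals1 and Lgals3 encode the galectins best known from fibroblasts and macrophages. Lgals1, for galectin-1, a prototype galectin that binds T cell glycoproteins and matrix, read 87501, 91354 and 112968 in apCAFs 1, 2 and 3, against 81783, 74888 and 84677 in nonapCAFs 4, 5 and 6. The lowest apCAFs library lay just above the highest nonapCAFs library. The means were 97274 ± 13727 in apCAFs and 80449 ± 5029 in nonapCAFs (SD, n = 3 each), a log2 difference of 0.27 with a 95% interval of -0.14 to 0.67 (limma adjusted p = 0.407). With quantile-normalized values the sign turned (log2 -0.033). The gene lies on chromosome 15, 78926725 to 78930465, forward strand. The transcribed pseudogene Lgals1-ps2, which may take some of its reads, held 324 to 403 in apCAFs and 255 to 279 in nonapCAFs.

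Lgals3 (chromosome 14, 47367751 to 47386160, forward strand) encodes galectin-3, the one chimera-type galectin, with a sugar-binding domain joined to a tail through which it forms multimers. It was the only one of the 8 whose mean was lower in apCAFs. It read 6492, 5729 and 6898 in apCAFs 1, 2 and 3, against 7961, 6745 and 13421 in nonapCAFs 4, 5 and 6. The groups overlap, and nonapCAFs 6 stood far above the other libraries. The log2 difference was -0.50 (SE 0.29, 95% interval -1.24 to 0.24, limma adjusted p = 0.395), and without nonapCAFs 6 it was -0.21. Lgals3 is also a macrophage gene. Of 12 macrophage markers 0 passed in limma (2 higher and 0 lower with p unadjusted at 0.05, 3 higher and 0 lower in the authors' deposited table), and they summed to 5428 to 13202 in apCAFs and 2722 to 4201 in nonapCAFs. Ptprc, which encodes CD45, was at 22 to 65 in apCAFs and at 2 to 34 in nonapCAFs. Lyz2, the most abundant of these markers and also a gene of alveolar type II cells, had 9898, 9470 and 640 in apCAFs 1, 2 and 3, against 470, 1028 and 226 in nonapCAFs 4, 5 and 6. The macrophage sum was 13202, 12844 and 5428 in apCAFs 1, 2 and 3, so Lyz2 made up most of it in apCAFs 1 and 2. The part of macrophages in the Lgals3 values was not tested.

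Lgals8 (chromosome 13, 12439415 to 12464944, reverse strand) encodes galectin-8, a tandem-repeat galectin that binds integrins outside the cell and exposed sugars on damaged vesicles inside it. It read 3662, 3757 and 4808 in apCAFs 1, 2 and 3, against 2837, 2856 and 3155 in nonapCAFs 4, 5 and 6, with no overlap. The log2 difference was 0.46 (SE 0.17, 95% interval 0.04 to 0.88) and did not pass (limma adjusted p = 0.229). The authors' deposited table calls Lgals8 higher in apCAFs, with a log2 ratio of 0.47 and a DESeq2 adjusted p = 0.0107. That table lists 4 of the 8 genes as higher (Lgals7, Lgals3bp, Lgals9 and Lgals8), beside 3960 of the 19255 genes with an adjusted p, or 20.6%. The last 875 bases of Lgals8 overlap Heatr1 on the opposite strand, which read 4390 to 6798 in apCAFs and 7702 to 8678 in nonapCAFs. Without strand, reads from the overlap cannot be told apart.

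Lgals4 and Lgals2 were the faintest of the 5 genes that did not pass. Lgals4 (chromosome 7, 28833854 to 28841708, forward strand), for a tandem-repeat galectin known from gut epithelium, read 462, 431 and 815 in apCAFs 1, 2 and 3, against 259, 201 and 430 in nonapCAFs 4, 5 and 6. The groups nearly meet, since apCAFs 2 held 431 and nonapCAFs 6 held 430. The log2 difference was 0.95 with a 95% interval of -0.04 to 1.94 (limma adjusted p = 0.276). Of 10 epithelial markers, 2 passed higher in limma (Krt19 and Cldn3). With p unadjusted at 0.05, 6 were higher, and 6 were higher in the authors' deposited table. The list summed to 18877, 17598 and 11771 in apCAFs 1, 2 and 3, against 10807, 10122 and 7394 in nonapCAFs 4, 5 and 6. Most of the sum in nonapCAFs 4, 5 and 6 came from Krt18 (6346, 5669 and 4277) and Krt8 (3679, 3617 and 2833). Within each group the sum was lowest where Lgals4 was highest, in apCAFs 3 and nonapCAFs 6. Krt19 and Cldn3, in contrast, were highest in apCAFs 3. Epcam, which encodes a protein the sort was meant to leave out, had 181, 209 and 21 in apCAFs 1, 2 and 3, against 13, 3 and 5 in nonapCAFs 4, 5 and 6. Genes of alveolar type II cells were also looked at. Their list of 8, which holds 4 surfactant protein genes and Abca3, Lamp3, Napsa and Slc34a2, summed to 92779, 76552 and 5582 in apCAFs 1, 2 and 3 and to 5696 to 5945 in nonapCAFs, while Lgals4 was highest in apCAFs 3. None of the 8 passed in limma (0 with p unadjusted at 0.05, 7 higher in the authors' deposited table). Sftpc, the most abundant surfactant gene, had 48853, 40491 and 226 in apCAFs 1, 2 and 3, against 185, 185 and 124 in nonapCAFs 4, 5 and 6. The part of epithelial cells in the Lgals4 values was not tested.

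Lgals2 (chromosome 15, 78850860 to 78855529, reverse strand), for a prototype galectin known from gut and monocytes, read 101, 74 and 133 in apCAFs 1, 2 and 3, against 84, 90 and 73 in nonapCAFs 4, 5 and 6. The groups overlap (log2 0.28, 95% interval -0.36 to 0.92, limma adjusted p = 0.52), and the sign turned with quantile-normalized values (log2 -0.13). Its last 38 bases overlap Cdc42ep1 on the opposite strand, which was far more abundant, at 4905 to 5901 in apCAFs and 5155 to 5688 in nonapCAFs. Counting all 8 genes, 6 had every apCAFs library above every nonapCAFs library, beside 17.1% of all genes tested and 25.5% of those averaging 100 or more.

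Levels between the 8 genes, Lgals3bp included, were compared per kilobase of annotated exon (GENCODE M21), as normalized counts per kilobase. Lgals1 was far above the others, at 107724 ± 15202 in apCAFs and 89091 ± 5569 in nonapCAFs (SD, n = 3 each). It made up 81.9%, 83.1% and 82.1% of the summed level of the 8 genes in apCAFs 1, 2 and 3, and 87.6%, 87.5% and 86.3% in nonapCAFs 4, 5 and 6. Lgals3bp took 9.03% to 9.85% of that sum in apCAFs and 4.02% to 5.22% in nonapCAFs. Lgals3 took 2.44% to 2.95% in apCAFs and 3.83% to 6.65% in nonapCAFs.

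The order of levels per kilobase in apCAFs ran from Lgals1 to Lgals3bp (12378 ± 1856), Lgals9 (3984 ± 184), Lgals3 (3430 ± 319), Lgals7 (1782 ± 1176), Lgals8 (1105 ± 172), Lgals4 (246 ± 92.1) and Lgals2 (173 ± 49.9). In nonapCAFs it ran from Lgals1 to Lgals3 (5046 ± 1914), Lgals3bp (4805 ± 383), Lgals9 (2224 ± 145), Lgals8 (799.7 ± 48.4), Lgals2 (139 ± 14.6), Lgals4 (128 ± 51.4) and Lgals7 (66.5 ± 21.6). Lgals7 thus had the lowest level in nonapCAFs and stood between Lgals3 and Lgals8 in apCAFs. Neighbours whose libraries overlapped were Lgals3 with Lgals7, Lgals7 with Lgals8, and Lgals4 with Lgals2 in apCAFs, and Lgals3 with Lgals3bp and Lgals2 with Lgals4 in nonapCAFs.

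**Figure D3:**
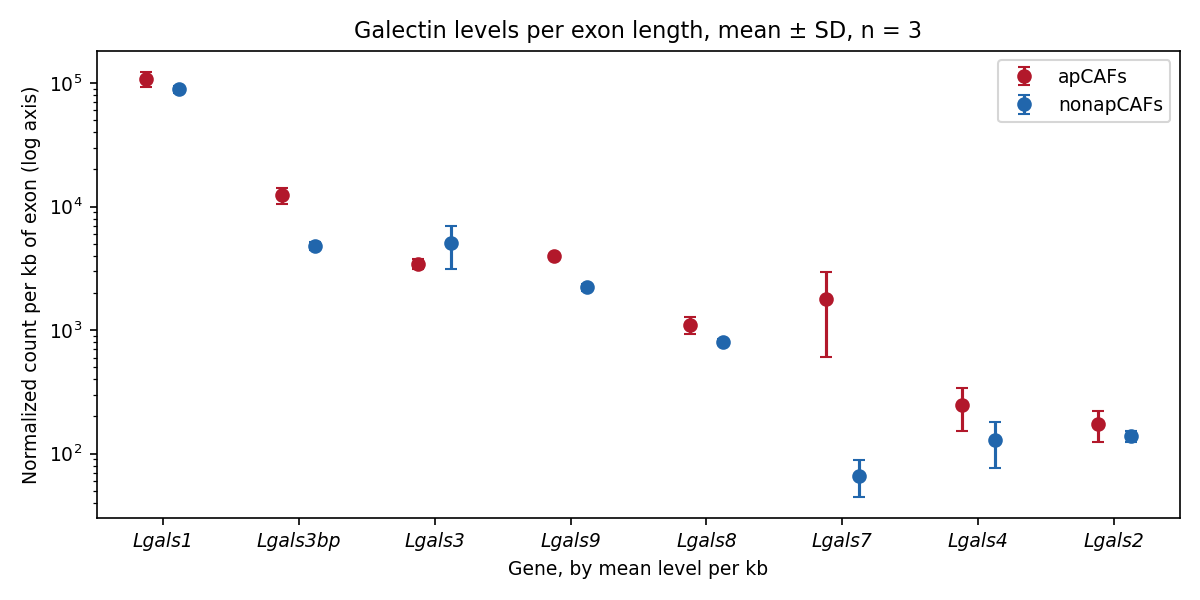
Normalized count per kilobase of exon (log axis) for each gene, mean ± SD over 3 libraries, apCAFs in red left of nonapCAFs in blue. Lgals1 is highest in both groups (107724 and 89091), and Lgals7 is the gene whose rank differs most between the groups, at 1782 in apCAFs and 66.5 in nonapCAFs.

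Beyond the 8 genes, the family's other 3 measured members gave no call in limma (1 higher and 0 lower with p unadjusted at 0.05, and likewise in the authors' deposited table). Lgalsl, a galectin-like gene, read 2937, 3102 and 4135 in apCAFs 1, 2 and 3, against 2253, 1954 and 2371 in nonapCAFs 4, 5 and 6 (log2 0.62, SE 0.19, limma adjusted p = 0.173). Lgals12, known from fat cells, held 0 to 8 in apCAFs and 2 to 22 in nonapCAFs. Grifin, a lens protein gene, held 0 to 3 in apCAFs and 0 in every nonapCAFs library. Lgals6 was looked for by name and had no row.

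Glycoproteins known to bind galectins were in part higher in apCAFs. Of 35 such genes, 4 passed higher and 0 lower in limma, beside 3.91% and 0.486% of all genes tested. With p unadjusted at 0.05, 14 were higher and 3 lower, beside 13.1% of all genes higher. The authors' deposited table listed 15 higher and 2 lower, beside 20.6% higher of its genes with an adjusted p. The median log2 fold change was 0.53, beside -0.04 for all genes tested. Kdr, a VEGF receptor gene whose product binds galectin-1, was 38.5-fold higher (2274 ± 687 in apCAFs against 59.3 ± 21.1 in nonapCAFs, limma adjusted p = 0.00966). Dpp4, a surface protease gene, was 8.77-fold higher (limma adjusted p = 0.0173). Pdpn, the podoplanin gene and one of the positive sort markers, was 6.65-fold higher (limma adjusted p = 0.0183). Thbs1, a matrix glycoprotein gene, was 4.50-fold higher (219007 ± 2648 in apCAFs against 50717 ± 16971 in nonapCAFs, limma adjusted p = 0.0249). Adhesion partners were mixed and did not pass in limma; those given here were chosen after their values were seen. Fn1, the fibronectin gene, averaged 695103 in apCAFs and 367693 in nonapCAFs without overlap (log2 0.93, limma adjusted p = 0.0961). Itga6, a laminin-binding integrin gene, had 10425, 8905 and 4726 in apCAFs 1, 2 and 3, against 15131, 16275 and 14970 in nonapCAFs 4, 5 and 6 (log2 -1.02, limma adjusted p = 0.181). Of the 35, 17 had every apCAFs library above every nonapCAFs library, beside 17.1% of all genes tested and 25.5% of those averaging 100 or more. In 4 every apCAFs library was below every nonapCAFs library, beside 15.4% of all genes tested. Itga6 and Itga3 were among those below, and Fn1, Itga1 and Itga5 among those above. Itgb1 overlapped between the groups, at 62254 to 72199 in apCAFs and 59014 to 68972 in nonapCAFs, as did Cd44, at 22437 to 27204 in apCAFs and 22828 to 29573 in nonapCAFs.

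Leukocyte receptors of galectins are described from genes chosen after their values were seen, none of which passed in limma. Havcr2, which encodes the galectin-9 receptor TIM-3, read 46, 15 and 42 in apCAFs 1, 2 and 3, against 81, 58 and 152 in nonapCAFs 4, 5 and 6 (limma adjusted p = 0.24). Lag3, whose product binds galectin-3, read 486, 420 and 871 in apCAFs 1, 2 and 3, against 171, 173 and 325 in nonapCAFs 4, 5 and 6 (limma adjusted p = 0.145). Vsir held 1750 to 2361 in apCAFs and 986 to 1164 in nonapCAFs (limma adjusted p = 0.0607). Tnfrsf25 held 106 to 474 in apCAFs and 42 to 90 in nonapCAFs (limma adjusted p = 0.227). Cd40 overlapped between the groups, at 190 to 396 in apCAFs and 298 to 394 in nonapCAFs. The T cell genes Cd3e, Cd3d, Cd8a, Cd4 and Trbc2 summed to 16 to 95 in apCAFs and 6 to 29 in nonapCAFs.

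Enzymes that build, branch or cap the sugars galectins bind gave no call. Of 23 genes 0 passed in limma in either direction, with a median log2 fold change of -0.01 beside -0.04 for all genes tested. With p unadjusted at 0.05, 4 were higher and 1 lower, beside 13.1% of all genes higher. The authors' deposited table listed 5 higher and 2 lower, beside 20.6% higher of its genes with an adjusted p. The most abundant were Man2a1, a Golgi mannosidase gene (28642 ± 3095 in apCAFs and 21138 ± 1102 in nonapCAFs, limma adjusted p = 0.199), and B4galt5, a galactosyltransferase gene (30275 ± 7788 in apCAFs and 16790 ± 1949 in nonapCAFs, limma adjusted p = 0.135). Mgat5, the branching enzyme gene whose product makes favoured galectin-3 ligands, read 1528 to 1859 in apCAFs and 1310 to 1954 in nonapCAFs. St6gal1, whose product adds the sialic acid cap that blocks galectin-1, read 4591 to 8325 in apCAFs and 5912 to 8073 in nonapCAFs. Both ranges overlap between the groups, and both genes were named after their values were seen. In 7 of the 23 every apCAFs library was above every nonapCAFs library, and in 5 below, beside 17.1% and 15.4% of all genes tested. B4galt1, also named after its values were seen, was among those above. It read 23246 to 33015 in apCAFs and 13321 to 15500 in nonapCAFs (limma adjusted p = 0.0803).

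Of 12 measured genes that act with cytosolic galectins at damaged vesicles, 1 passed higher and 0 lower in limma. The share called higher was 3.91% of all genes tested and 5.87% of those averaging 100 or more. With p unadjusted at 0.05, 3 were higher and 1 lower, beside 13.1% of all genes higher. The authors' deposited table listed 4 higher and 1 lower, beside 20.6% higher of its genes with an adjusted p. The median log2 fold change of the 12 was 0.21, beside -0.04 for all genes tested. Calcoco2, also on that list, is at 0 in every library. The single limma call was Optn, an autophagy receptor gene, named for that reason. Optn read 613, 577 and 860 in apCAFs 1, 2 and 3, against 261, 272 and 339 in nonapCAFs 4, 5 and 6 (2.32-fold, limma adjusted p = 0.0497). The most abundant, Sqstm1, another autophagy receptor gene, averaged 53227 ± 7061 in apCAFs and 45000 ± 11391 in nonapCAFs (limma adjusted p = 0.524). Pdcd6ip, a membrane repair gene, averaged 19331 ± 1031 in apCAFs and 20635 ± 702 in nonapCAFs (limma adjusted p = 0.661).

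**Figure D4:**
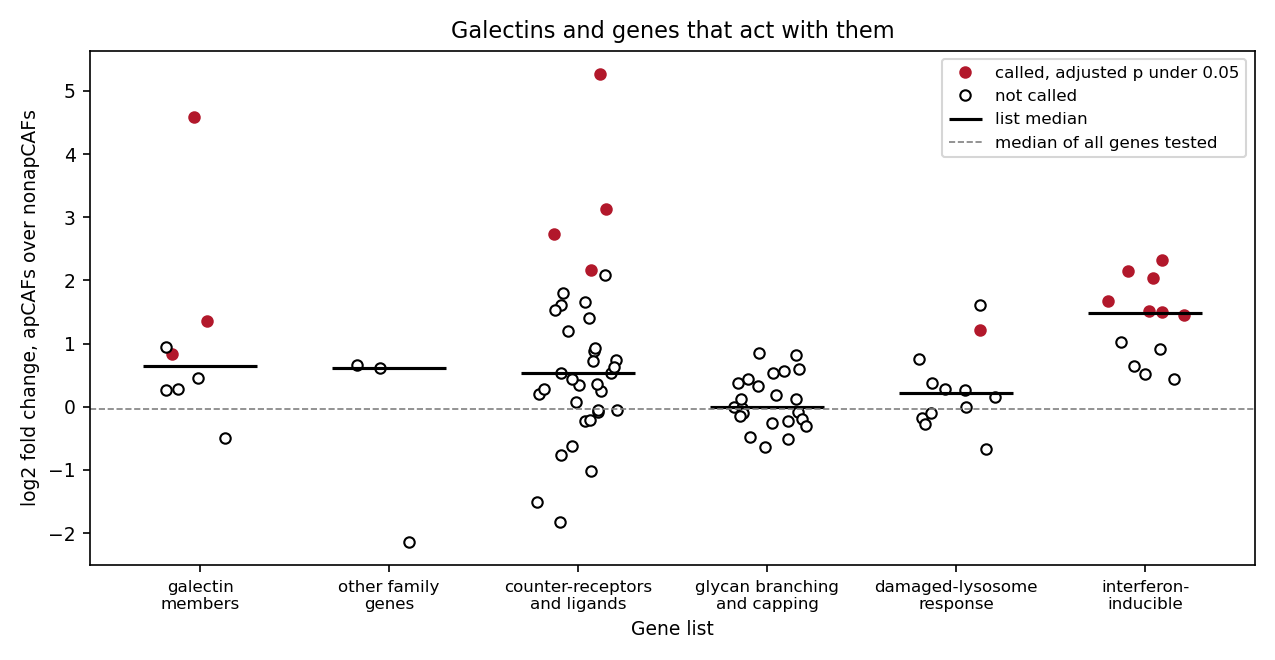
Log2 fold change, apCAFs over nonapCAFs, of the 8 genes (Lgals3bp included) and of 5 gene lists. Each point is a gene, red if it passed the adjusted threshold, black bars are list medians and the dashed line is the median of all genes tested (-0.04). The interferon-inducible list (median 1.48, 7 of 12 called) lies highest, and the glycan enzyme list (median -0.01, 0 of 23 called) lies at the background.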

How the data were processed

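The authors counted reads per gene, normalized the counts across libraries and deposited whole numbers, per the file headers, and these deposited values are treated as a score since they are not raw counts. Per the file headers, the authors' deposited table also gives DESeq2 p-values, raw and adjusted, a ratio of group levels and the log2 of that ratio for each gene. Trim Galore, Bowtie2, DESeq2 and mm10 appear in the submitters' processing notes. How reads were assigned to genes and strands is not given in the sources used here. With depth unknown, counting intervals are left out.

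The test was limma 3.58.1 (R 4.3.3) on log2(value + 1), group being its single factor, with two-sided p-values, over 36443 genes above 0 in at least 1 library. Benjamini-Hochberg adjustment ran over all of these and the threshold was 0.05. Adding 1 understates changes of low genes. The procedure was tested on simulated data. The 8 genes and all gene lists were chosen with earlier results of these data known. Coordinates of the 8 genes match GENCODE M21.

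Named genes were the 8, the other family members, and from each list up to 4 called genes by smallest p, or the 2 most abundant where fewer than 2 passed. For each called gene of the 8 averaging 100 or more, the 3 genes of most like pattern were added. Genes outside this rule are marked where they are not markers. There were 22 alternatives. A gene of the interferon-inducible list and a related motif search are not reported here.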

Additional observations from a re-analysis of the deposited data

How the results depend on the processing

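The log2 fold changes of Lgals3, Lgals3bp, Lgals4, Lgals7, Lgals8 and Lgals9 kept their sign in all 21 limma alternatives, while those of Lgals1 (-0.033) and Lgals2 (-0.13) turned with quantile-normalized values. Of the 8 members, Lgals3bp included, 3 were called higher in the fit reported and 0 without any one of apCAFs 1, apCAFs 2, nonapCAFs 4, nonapCAFs 5 or nonapCAFs 6. Leaving out each library gave 0 to 3 for the members and 310 to 1791 for the whole table. Averaging apCAFs 1 with 2 and nonapCAFs 4 with 5 gave 0 members and 0 genes called, against 3491 higher and 1209 lower genes, and 3 members, when p was left unadjusted at 0.05. The labels share no replicate numbers between groups, so each of the 6 possible pairings was fitted as a replicate block: limma then called 0 members and 0 genes, against 3 to 5 members higher with p unadjusted at 0.05. The adjusted p of Lgals7 over these pairings was 0.0611 to 0.145, of Lgals3bp 0.0937 to 0.138 and of Lgals9 0.108 to 0.192; a balanced block leaves fold changes as they are and has fewer degrees of freedom. The whole-table count was 1602 in the fit reported, 2527 with a pseudocount of 10, 2465 and 2748 for genes averaging 10 and 100 or more, 3453 with a variance trend and 5842 in the authors' deposited table. Values divided by library totals and median-centred values each gave 2 members, with Lgals9 lost. Library totals, quantile normalization and median centring moved the median log2 fold change of all genes by -0.14, -0.15 and -0.22. No value could be had for Lgals2 with a minimum average of 100. The causes of these changes were not tested.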
